A study of Mus musculus with 6 samples.

Results

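Glycolysis and hypoxia response genes were followed in fibroblasts sorted from mouse lung tumours, in cells with and without MHC class II on their surface. The 36 genes were listed by name and found by their symbol. They are 36 of the 55298 genes in the files and fill 37 entries, because Aldoa is listed under 2 identifiers. All 37 entries had a mean value of at least 100 over the libraries, so a filter on low values removed none of them.

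RNA came from cancer-associated fibroblasts (CAFs) of orthotopic lung tumours grown in wild-type C57BL/6 mice over 8 weeks old. Both groups were large cells by forward scatter, negative for CD45, CD31, EPCAM and mCherry, and positive for PDPL (so spelled in the labels) and PDGFRa. The 3 apCAFs libraries (1, 2 and 3) were MHCII+, and the 3 nonapCAFs libraries (4, 5 and 6) were MHCII-. Tumours were pooled ("pulled" in the submitters' text, read here as pooled) in each of 3 independent experiments, and each library therefore holds cells of several tumours; the labels do not say which libraries share an experiment. Each value is a normalized, rounded gene count as deposited, and the sequencing depth is unknown.

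Glycolysis turns glucose into pyruvate, and in cells short of oxygen most pyruvate is reduced to lactate and exported. When oxygen falls, prolyl hydroxylases (the Egln genes) stop marking the hypoxia-inducible factors HIF-1 alpha (Hif1a) and HIF-2 alpha (Epas1) for destruction, and these factors then raise transcription of glucose transporters, glycolytic enzymes, lactate exporters and a set of stress genes. Hif1a is controlled mainly at the protein level, so its transcript is a poor readout of its activity. Tumour fibroblasts are known for high glucose use and lactate export.

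Aldoc, the gene of aldolase C, and Slc16a3, the gene of a lactate exporter, were higher in apCAFs, by 6.66-fold and 3.29-fold. The 16 entries for enzymes from hexokinase to pyruvate kinase, Aldoc among them, had a median log2 difference of 0.00, with 7 above 0 and 9 below. In limma, at a p-value adjusted over all 36443 genes above 0 in at least 1 library, only Aldoc and Slc16a3 passed at 0.05, both higher in apCAFs, and no member was lower. That is 5.41% of the entries, against 3.91% of all tested genes called higher, 0.486% called lower and 4.40% called in either direction. Of genes whose mean was 100 or more, 5.87% were called higher, so the number of calls is close to the background. At an unadjusted p under 0.05, 12 entries lay higher (32.4%; 13.1% of all tested genes and 17.6% of genes whose mean was 100 or more) and 0 lay lower (6.19% and 7.40%). For 20 entries every apCAFs library lay above every nonapCAFs library (54.1%), against 25.5% of genes whose mean was 100 or more and 17.1% of all tested genes. For 4 entries (10.8%, against 25.9% and 15.4%) every apCAFs library lay below. In the authors' deposited table, 12 entries had a DESeq2 adjusted p under 0.05 and were higher in apCAFs (32.4%, against 20.6% of the genes given an adjusted p there), and 0 were lower (9.77%); they are the same 12 genes. With a variance trend and robust estimation limma called 9 members, against 8.50% of all tested genes called higher. The median log2 difference over the 37 entries was 0.15, beside -0.04 over all tested genes. The members were chosen with earlier results of these data known, so these shares describe the list.

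**Figure D1:**
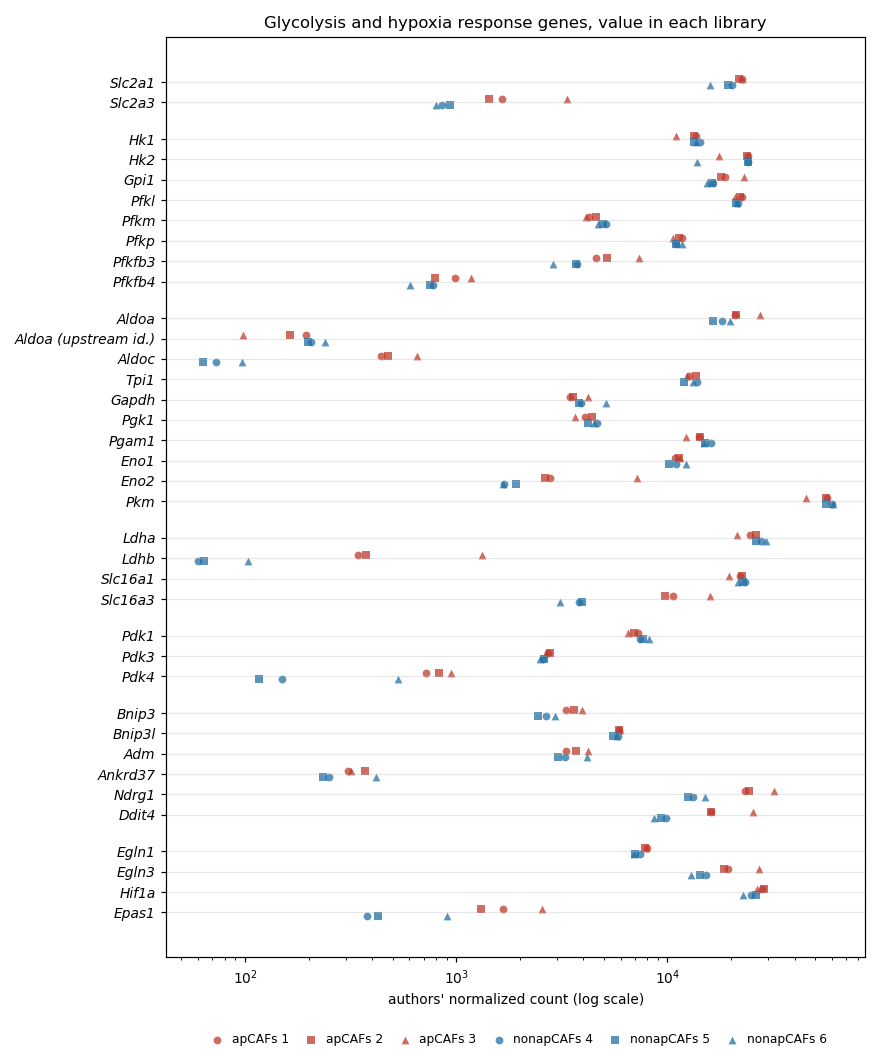
Authors' normalized count (log axis) of each of the 37 entries in the 6 libraries, grouped by role from glucose uptake at the top to oxygen sensing at the bottom; each point is 1 library, red for apCAFs and blue for nonapCAFs, and "upstream id." is the second identifier of Aldoa. Pkm, at 45462 to 60992, is the highest entry; in Aldoc, Ldhb, Pdk4, Epas1 and Slc16a3 the red points stand clear of the blue ones.

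The libraries were not equally alike. Over the member entries, the log2 ratio between apCAFs 1 and 2 had an SD of 0.13 and that between nonapCAFs 4 and 5 one of 0.10, while the ratios of apCAFs 3 to apCAFs 1 and 2 had SDs of 0.53 and those of nonapCAFs 6 to nonapCAFs 4 and 5 had 0.46 and 0.50. Over genes whose mean was 100 or more, the SDs were 0.238 for apCAFs 1 and 2 and 0.246 for nonapCAFs 4 and 5. They were 0.708 and 0.687 for apCAFs 3 and 0.495 and 0.479 for nonapCAFs 6, so this pattern was not particular to the members. apCAFs 3 was the highest of the 6 libraries for all 12 members at an unadjusted p under 0.05. The share of all genes that were highest in apCAFs 3 is not given here. Markers of other cells moved between libraries as well. The summed value of 8 alveolar type II markers was 97782 and 81633 in apCAFs 1 and 2, 1797 in apCAFs 3 and 1981 to 3282 in nonapCAFs. Haemoglobin and Alas2 transcripts (5 erythroid genes) summed to 6824 in apCAFs 3 and 6734 in nonapCAFs 6, and to 45 to 819 in the others. The summed 7 mesothelial markers ran from 36818 to 47728 in apCAFs and from 5073 to 5863 in nonapCAFs, with 6 of 7 called higher. The 8 fibroblast markers were abundant in all libraries, summing to 2813475 to 4251172 in apCAFs and 1200550 to 1438109 in nonapCAFs. The leukocyte markers summed to 1458, 1547 and 2673 in apCAFs and to 884, 1034 and 974 in nonapCAFs, so the groups did not overlap and apCAFs 3 was highest. The endothelial markers summed to 342 to 618 in apCAFs and 281 to 405 in nonapCAFs. The 4 cell cycle markers summed to 52927 and 53994 in apCAFs 1 and 2, 26222 in apCAFs 3 and 51144 to 63378 in nonapCAFs. The 6 epithelial markers summed to 10810 to 15849 in apCAFs and 7260 to 10324 in nonapCAFs, with 2 of 6 called higher. Those sums rest largely on Krt8 and Krt18, which overlapped between the groups (1.05-fold and 0.695-fold). Epcam, Cdh1, Krt19 and Cldn3 were higher in every apCAFs library, by 13.6-fold, 24.1-fold, 20.4-fold and 44.4-fold. apCAFs 3, in which the 12 genes peaked, was thus the highest library for the fibroblast, mesothelial, leukocyte and erythroid sums and the lowest for the type II and cell cycle sums. The part of these markers in the differences was not tested. In bulk RNA a change in the share of cells that express a gene and a change in RNA per cell cannot be told apart.

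Of the glucose transporters, Slc2a1 (GLUT1) is the main carrier in fibroblasts. Slc2a1 read 22636, 21868 and 22446 in apCAFs 1, 2 and 3 and 20300, 19347 and 15810 in nonapCAFs 4, 5 and 6. The groups did not overlap, but the difference was small (log2 0.28, SE 0.15, limma adjusted p = 0.363). Slc2a3 (GLUT3, a high-affinity carrier known from neurons and HIF-responsive in many cells) read 1645, 1435 and 3338 in apCAFs and 854, 939 and 802 in nonapCAFs. Every apCAFs library was higher, and apCAFs 3 was 2.17 times the mean of the other two. The difference was 2.30-fold (log2 1.20, SE 0.35, limma adjusted p = 0.151) and did not pass. Per kilobase of exon, Slc2a3 stood at 295.3 in apCAFs and 119.4 in nonapCAFs, far under Slc2a1 with 6365 and 5273.

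The steps from glucose to fructose bisphosphate showed little difference. Among the hexokinase genes, Hk2, the HIF-responsive form, read 24122, 23900 and 17603 in apCAFs and 24169, 23991 and 13723 in nonapCAFs. Its low libraries were apCAFs 3 and nonapCAFs 6, and the groups overlapped. Hk1, the widespread form, lay between 10948 and 14191. The phosphofructokinase subunit genes Pfkl and Pfkp had log2 differences of 0.03 (95% interval -0.28 to 0.34) and 0.00 (-0.32 to 0.32). The muscle-type subunit gene Pfkm read 4268, 4599 and 4126 in apCAFs and 5135, 4927 and 4678 in nonapCAFs (4331 ± 243, SD, n = 3, against 4913 ± 229). It was lower in each apCAFs library, by a log2 of -0.18 that did not pass (limma adjusted p = 0.488). Gpi1, the glucose phosphate isomerase gene, read 18792, 17866 and 23137 in apCAFs and 16374, 16251 and 15314 in nonapCAFs. The groups did not overlap, and the difference was 1.24-fold (limma adjusted p = 0.332).

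Pfkfb3 and Pfkfb4 encode enzymes that make fructose 2,6-bisphosphate, an activator of phosphofructokinase, and neither passed. Pfkfb3 read 4596, 5194 and 7332 in apCAFs and 3712, 3699 and 2858 in nonapCAFs. The groups did not overlap, and the 1.65-fold difference had a log2 of 0.72 (SE 0.24, limma adjusted p = 0.193). Pfkfb4 read 988, 794 and 1178 in apCAFs and 778, 748 and 603 in nonapCAFs. Here apCAFs 2 lay only just above nonapCAFs 4 (log2 0.47, SE 0.21, limma adjusted p = 0.296).

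From aldolase to pyruvate kinase, the abundant enzymes differed little and the rarer aldolase and enolase stood out. Aldoc, aldolase C, a form best known from brain, read 439, 477 and 652 in apCAFs and 73, 63 and 97 in nonapCAFs. The lowest apCAFs library was above 4 times the highest nonapCAFs library. Aldoc rose 6.66-fold (log2 2.74, SE 0.25, limma adjusted p = 0.014), and in the authors' deposited table its log2 fold change was 2.73 with a DESeq2 adjusted p of 9.91e-20. It was called in 12 of 21 alternative settings and lost its call without apCAFs 2 (limma adjusted p = 0.0525) or nonapCAFs 4 (0.051), and its log2 difference stayed between 2.32 and 2.91. The gene lies on chromosome 11 (78322968 to 78327781), and no 50-base stretch of its transcripts occurs in another gene's transcripts.

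Aldoa, the main aldolase, read 20926, 21175 and 27529 in apCAFs and 18100, 16507 and 19695 in nonapCAFs under its main identifier. All apCAFs libraries were higher, but the difference was small (log2 0.35, SE 0.18, limma adjusted p = 0.328). The second identifier covers an upstream stretch of the locus (chromosome 7, 126800790 to 126809108) and held 98 to 238. It ran the other way, with 194, 164 and 98 in apCAFs and 205, 198 and 238 in nonapCAFs (log2 -0.54, limma adjusted p = 0.353).

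Eno2, a neuronal-type enolase, read 2774, 2642 and 7151 in apCAFs and 1687, 1922 and 1664 in nonapCAFs. The groups did not overlap, and apCAFs 3 was 2.64 times the mean of apCAFs 1 and 2. The 2.13-fold difference (log2 1.09, SE 0.43) had a limma adjusted p of 0.253. Eno1, the common enolase, lay between 10122 and 12284 (log2 0.01, 95% interval -0.34 to 0.37), and 25.99% of its 50-base stretches also occur in other genes, chiefly its near-identical copy Eno1b. Summed with Eno1b, it ran from 44768 to 51903 in apCAFs and from 49641 to 53626 in nonapCAFs.

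The other enzyme genes of these steps overlapped or nearly met between the groups. Tpi1, the triose phosphate isomerase gene, had 12867 ± 707 and 12962 ± 955 (log2 -0.01, 95% interval -0.35 to 0.34). Pkm, the pyruvate kinase gene, stood at 10580 and 11837 per kilobase of exon, the highest member in nonapCAFs and second to Ddit4 (10906) in apCAFs. It had a log2 difference of -0.17. Pgam1, the phosphoglycerate mutase gene, read 14094, 14208 and 12200 in apCAFs and 16013, 15016 and 14839 in nonapCAFs. It was lower in each apCAFs library (log2 -0.18, limma adjusted p = 0.517), and Pgk1 and Gapdh had log2 differences of -0.15 and -0.19. Gapdh, usually among the highest transcripts of a cell, stood at 903.7 and 1035 per kilobase of exon, under Tpi1 with 4674 and 4708. Of its 50-base stretches, 25.1% occur in transcripts of 223 other genes. For Pgk1 the share was 53.9%, for Pgam1 36.2% and for Pkm 25.8%. Reads from such stretches can be lost or split, so the levels of these genes are uncertain.

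**Figure D2:**
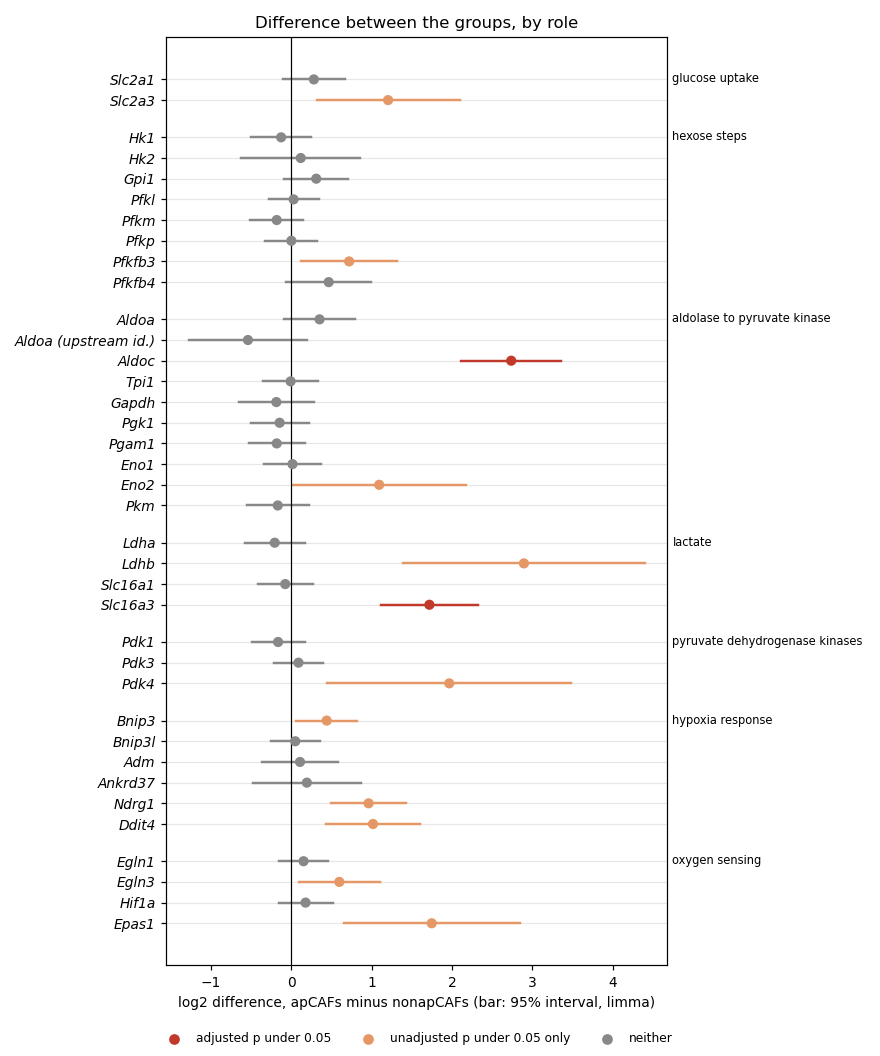
Log2 difference (apCAFs minus nonapCAFs, authors' normalized counts plus 1) of each entry, with its 95% limma interval, grouped by role. Red marks the 2 entries past an adjusted p of 0.05, orange the other 10 at an unadjusted p under 0.05, and grey the rest; most enzymes from Hk1 to Pkm sit close to 0.

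Of the 4 lactate genes, Slc16a3 passed and the others did not. Ldhb, the lactate dehydrogenase subunit that favours lactate use in heart muscle, read 341, 374 and 1319 in apCAFs and 60, 64 and 103 in nonapCAFs. Every apCAFs library was above 3 times the highest nonapCAFs library, and apCAFs 3 was 3.69 times the mean of apCAFs 1 and 2. Because of that spread the 7.43-fold difference (log2 2.89, SE 0.60) had a limma adjusted p of 0.0675. Without apCAFs 3 it was smaller but passed (log2 2.27, limma adjusted p = 0.0356). That was the only call when 1 library was left out (limma adjusted p up to 0.206). Ldhb was called in 5 of 21 alternative settings. Of its 50-base stretches, 21.0% occur in the copy Gm5514. Ldha, the subunit that favours lactate production, read 24473, 26273 and 21283 in apCAFs and 27613, 26130 and 29180 in nonapCAFs, and the groups overlapped (log2 -0.21, 95% interval -0.58 to 0.17).

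Slc16a3 (MCT4), the low-affinity exporter of lactate, read 10643, 9768 and 15821 in apCAFs and 3810, 3925 and 3086 in nonapCAFs. The groups stood well apart, and no 50-base stretch of its transcripts occurs in another gene. Slc16a3 (chromosome 11, 120948480 to 120960868) rose 3.29-fold (log2 1.72, SE 0.24, limma adjusted p = 0.0269). Leaving out any 1 library other than apCAFs 3 ended its call (limma adjusted p = 0.0645 to 0.096), with a log2 difference of 1.61 to 1.85. Slc16a1 (MCT1), which carries lactate both ways, lay between 19543 and 23296 in all libraries (log2 -0.08, 95% interval -0.42 to 0.26).

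Pyruvate dehydrogenase kinases keep pyruvate out of the mitochondrial cycle. Pdk4, the form induced by fasting and glucocorticoids, read 723, 825 and 942 in apCAFs and 150, 117 and 531 in nonapCAFs. nonapCAFs 6 stood at 3.98 times the mean of nonapCAFs 4 and 5 and below every apCAFs library. The 3.90-fold difference (log2 1.96, SE 0.60) had a limma adjusted p of 0.167, and passed without nonapCAFs 6 (log2 2.63, limma adjusted p = 0.026). Pdk4 was called in only 1 of 21 alternative settings. Its limma adjusted p ran up to 0.388 when 1 library was left out and up to 0.501 over all settings. Pdk1, the HIF target of the family, was lower in each apCAFs library (7263, 6978 and 6524 against 7435, 7635 and 8208) by a log2 of -0.16 that did not pass. Pdk3 read 2712, 2768 and 2673 in apCAFs and 2561, 2605 and 2501 in nonapCAFs. The groups did not overlap, with a log2 difference of 0.09 (limma adjusted p = 0.667).

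A ratio between paralogues within a library does not depend on how libraries are scaled. Of 13 pairs from the same gene families, 10 had groups that did not overlap, 8 with the first-named gene relatively higher in apCAFs and 2 with it relatively lower. The direction depends on which gene is named first, and the pairs were chosen with earlier results of these data known. These counts therefore describe the list. Of single genes whose mean was 100 or more, 25.5% lay all above and 25.9% all below. The share for other pairs of genes was not computed. Relative to its partner in the same library, Ldhb was 8.58-fold higher against Ldha, Aldoc 5.23-fold against Aldoa, Pdk4 4.38-fold against Pdk1, Slc16a3 3.47-fold against Slc16a1, Epas1 2.97-fold against Hif1a, Eno2 2.11-fold against Eno1, Slc2a3 1.90-fold against Slc2a1 and Egln3 1.36-fold against Egln1. With Eno1b added to Eno1, a choice made after the data were seen, the log2 difference of the Eno2 ratio was 1.19 in place of 1.08. Bnip3l against Bnip3 and Pfkm against Pfkl were relatively lower (log2 -0.39 and -0.21), and the pairs Hk2 and Hk1, Pfkp and Pfkl, and Pfkfb4 and Pfkfb3 overlapped. With 3 libraries against 3, the exact two-sided permutation test cannot go below p = 0.10, which all 10 of these pairs reached (0.13 adjusted over the 13 pairs). None can therefore pass a threshold of 0.05.

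The rarer form stayed the minor one in most pairs. Per kilobase of exon, Ldhb made up 5.62% of the Ldha and Ldhb values in apCAFs and 0.574% in nonapCAFs, and Aldoc 1.97% and 0.381% of the 2 aldolases. Eno2 made up 30% and 15.3% of the pair with Eno1 when Eno1b is left out. Eno1b held 20082 and 21892 per kilobase, against 2082 and 2068 for Eno1 and 890.3 and 373.6 for Eno2. With Eno1b counted, the share of Eno2 is therefore far smaller in both groups. Slc16a3 made up 31.9% and 11.8% of the 2 lactate carriers.

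**Figure D3:**
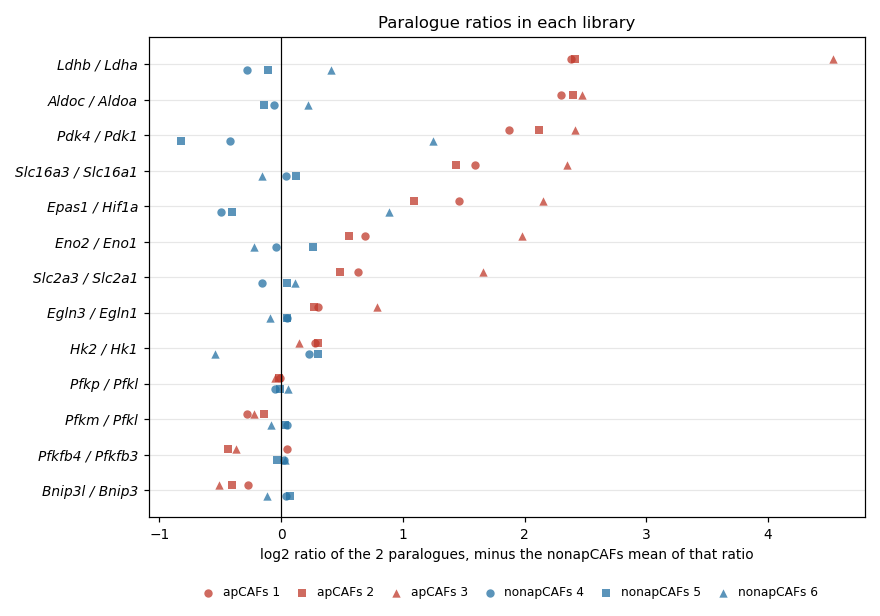
Log2 ratio of the 2 paralogues in each library, minus the nonapCAFs mean of that ratio, for 13 pairs sorted by the difference between groups; each point is 1 library, red for apCAFs and blue for nonapCAFs. The ratio of Ldhb to Ldha shows the widest gap, with apCAFs 3 farthest right, while Pfkp to Pfkl stays close to 0 in both groups.

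Of 6 stress and survival genes known to respond to low oxygen, 3 lay higher at an unadjusted p under 0.05 (50%, against 13.1% of all tested genes and 17.6% of those whose mean was 100 or more) and 0 passed after adjustment. Ndrg1, a differentiation and stress gene, read 23328, 24425 and 32101 in apCAFs and 13209, 12526 and 14984 in nonapCAFs. The groups stood apart (1.95-fold, log2 0.96, limma adjusted p = 0.0581). Its exons overlap those of Gm17035. Ddit4 (REDD1), an inhibitor of mTORC1 that also answers to glucocorticoids, read 15986, 16048 and 25388 in apCAFs and 9868, 9293 and 8593 in nonapCAFs. The lowest apCAFs library was well above the highest nonapCAFs library, and the 2.02-fold difference had a limma adjusted p of 0.0849. Leaving out 1 library gave a limma adjusted p of 0.0434 (without apCAFs 3) to 0.233. Ddit4 was called in 4 of 21 alternative settings.

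Bnip3, a mitophagy receptor gene, read 3318, 3602 and 3956 in apCAFs and 2651, 2445 and 2921 in nonapCAFs. Its difference was 1.36-fold (log2 0.44, SE 0.15, limma adjusted p = 0.202). Of its 50-base stretches, 47.2% occur in other genes, and its exons overlap Gm45507 on the opposite strand, so its level is uncertain. The related Bnip3l read 5879, 5864 and 5972 in apCAFs and 5837, 5515 and 5777 in nonapCAFs. The groups did not overlap, but they nearly met (log2 0.05, limma adjusted p = 0.826). Of the 50-base stretches of Bnip3l, 20.8% occur in Bnip3l-ps. Adm, the adrenomedullin gene, had 3737 ± 436 and 3483 ± 588, and Ankrd37 had 333.0 ± 33.3 and 300.3 ± 100.5. For both the groups overlapped, with 95% intervals of -0.37 to 0.58 for Adm and -0.48 to 0.86 for Ankrd37.

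All 4 genes of oxygen sensing lay higher in each apCAFs library, as did 17.1% of all tested genes and 25.5% of those whose mean was 100 or more, and none passed. Hif1a and Egln1 changed sign under median centring. Epas1 read 1667, 1309 and 2544 in apCAFs and 380, 426 and 902 in nonapCAFs. nonapCAFs 6 was 2.24 times the mean of nonapCAFs 4 and 5, and still below apCAFs. The difference was 3.36-fold (log2 1.75, SE 0.43, limma adjusted p = 0.104). Epas1 was called in 3 of 21 alternative settings. Its limma adjusted p ran from 0.016, with a term for apCAFs 3 and nonapCAFs 6, to 0.384. Leaving out 1 library gave 0.0678 to 0.284. Hif1a, far more abundant, read 28152, 28620 and 26665 in apCAFs and 24968, 26228 and 22685 in nonapCAFs (log2 0.18, SE 0.13, limma adjusted p = 0.514). Egln3, the hydroxylase gene most strongly induced by HIF, read 19388, 18473 and 26966 in apCAFs and 15159, 14256 and 12912 in nonapCAFs. It was 1.51-fold higher (log2 0.60, SE 0.20, limma adjusted p = 0.196). Egln1, the main oxygen sensor, read 8001, 7788 and 7930 in apCAFs and 7402, 7003 and 6947 in nonapCAFs, with groups that did not overlap and a log2 difference of 0.15 (limma adjusted p = 0.518).

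The sign of the small differences depended on the scaling. Under the authors' scaling 25 of the 37 entries lay above 0; with values divided by library totals 18 did, with quantile normalization 22, with upper-quartile centring 21 and with median centring 13. These choices move the median of all tested genes from -0.04 to -0.18, -0.19, -0.14 and -0.46. Median centring turned the sign of Slc2a1, Hk2, Gpi1, Pfkl, Aldoa (main identifier), Eno1, Pdk3, Bnip3l, Adm, Ankrd37, Egln1 and Hif1a. None of the 12 members at an unadjusted p under 0.05 changed sign under any of these scalings. The other alternatives could not turn these signs, because the groups of each of the 12 did not overlap.

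The sequences upstream of these genes are shown because HIF binds a short core, ACGTG or GCGTG, in the promoters of its targets. Windows of 250 bases before the transcription start were taken from RefSeq (build GRCm38.p6), where 32 of the 36 members were matched by symbol. The cores were searched on both strands. CACGTG, which holds ACGTG on both strands, is also an E-box. The called genes Slc16a3 and Aldoc are followed by Ddit4 and Bnip3, which lay higher without passing, and by Ldha, a classical HIF target that did not differ. Capitals mark the cores on either strand.
Slc16a3, chr11:120948817-120949066 (plus strand): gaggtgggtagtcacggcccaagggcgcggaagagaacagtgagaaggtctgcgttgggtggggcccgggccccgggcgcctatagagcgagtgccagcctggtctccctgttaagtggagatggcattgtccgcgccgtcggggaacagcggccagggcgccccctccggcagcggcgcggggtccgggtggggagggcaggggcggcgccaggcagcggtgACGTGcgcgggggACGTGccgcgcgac
Aldoc, chr11:78322823-78323072 (plus strand): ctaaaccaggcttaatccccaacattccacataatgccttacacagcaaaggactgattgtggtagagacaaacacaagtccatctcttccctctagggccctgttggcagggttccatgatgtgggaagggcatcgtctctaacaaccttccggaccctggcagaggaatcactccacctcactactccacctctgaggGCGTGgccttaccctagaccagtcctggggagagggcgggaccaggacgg
Ddit4, chr10:59951771-59952020 (minus strand): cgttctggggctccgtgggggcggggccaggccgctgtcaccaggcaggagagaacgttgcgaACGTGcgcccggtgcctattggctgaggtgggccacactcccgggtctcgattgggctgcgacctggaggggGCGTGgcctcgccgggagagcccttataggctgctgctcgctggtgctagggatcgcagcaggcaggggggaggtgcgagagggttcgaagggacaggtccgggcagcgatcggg
Bnip3, chr7:138909507-138909756 (minus strand): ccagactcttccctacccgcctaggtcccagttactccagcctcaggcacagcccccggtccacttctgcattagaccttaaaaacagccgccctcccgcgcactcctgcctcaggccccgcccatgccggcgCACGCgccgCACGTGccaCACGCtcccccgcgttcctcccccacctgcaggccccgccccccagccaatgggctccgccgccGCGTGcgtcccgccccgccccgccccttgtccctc
Ldha, chr7:46845554-46845803 (plus strand): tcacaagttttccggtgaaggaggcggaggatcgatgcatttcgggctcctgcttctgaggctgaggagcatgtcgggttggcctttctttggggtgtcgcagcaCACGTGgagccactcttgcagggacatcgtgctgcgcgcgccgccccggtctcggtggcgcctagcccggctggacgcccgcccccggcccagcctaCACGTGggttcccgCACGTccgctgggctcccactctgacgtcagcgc

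Of the 32 matched members, 29 held a core in at least 1 window (90.6%), against 41.5% of the 27025 genes in the table. The members were listed in part for being known HIF targets, so this share describes the list. A core was found in 8 of the 9 matched members at an unadjusted p under 0.05 and in 21 of the other 23. Slc16a3 has a pair of cores close to its start and Aldoc has 1 in each of its windows, while Ldha has 5 matches in 3 stretches of the window shown. Eno2 had no match in its window.

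Further genes of the pathway were taken from lists by function, chosen with earlier results of these data known. The shares below therefore describe the lists. Of 28 other HIF target genes, 5 rose (17.9%, against 3.91% of all tested genes and 5.87% of those whose mean was 100 or more) and 0 fell, with a median log2 difference of 0.51, and 17 had all apCAFs libraries above all nonapCAFs libraries (60.7%, against 25.5% of genes whose mean was 100 or more). For 3 of the 28 every apCAFs library lay below (10.7%, against 25.9%). In the authors' deposited table, 13 were higher and 2 (Mxi1 and Tfrc) lower at a DESeq2 adjusted p under 0.05. Of all genes given an adjusted p there, 20.6% were higher and 9.77% lower. Car9, a carbonic anhydrase and a standard tissue marker of hypoxia, read 1786, 1714 and 3120 in apCAFs and 289, 287 and 457 in nonapCAFs. It rose 6.30-fold (log2 2.66, SE 0.33, limma adjusted p = 0.0215). Car12, a second carbonic anhydrase, rose 4.06-fold (limma adjusted p = 0.011), Lox, a collagen crosslinking enzyme, 4.37-fold (limma adjusted p = 0.0178), Stc2, a secreted glycoprotein, 10.5-fold (limma adjusted p = 0.0371) and Rora, a nuclear receptor, 4.17-fold (limma adjusted p = 0.0454).

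Vegfa, the angiogenic factor and a classical HIF target, read 27941, 27715 and 45596 in apCAFs and 15262, 15022 and 11785 in nonapCAFs. The groups stood apart, but the 2.36-fold difference did not pass (log2 1.24, SE 0.26, limma adjusted p = 0.0708). Kdm3a, Higd1a, Ak4 and Plod2, also known HIF targets, had log2 differences between -0.03 and 0.16. Tfrc, the transferrin receptor gene, read 5250, 5099 and 3161 in apCAFs and 6830, 7024 and 8558 in nonapCAFs (log2 -0.76, limma adjusted p = 0.197), and limma with a variance trend and robust estimation called it lower. Car9, Car12, Lox, Stc2, Rora and Vegfa were highest in apCAFs 3, as the 12 members were.

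**Figure D4:**
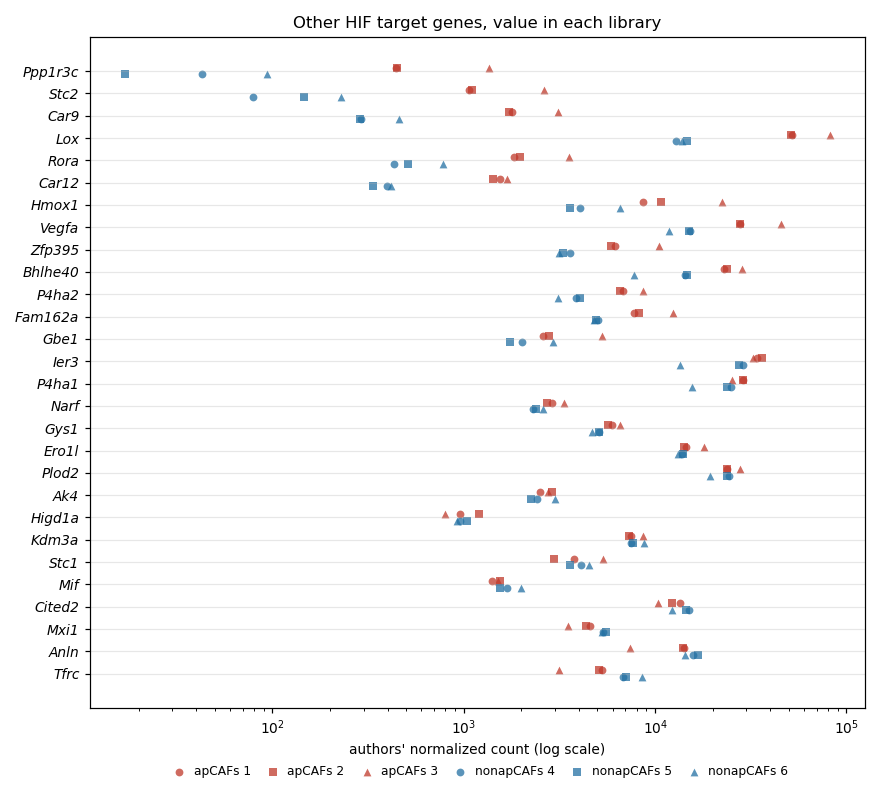
Authors' normalized count (log axis) of 28 other HIF target genes in the 6 libraries, sorted from the largest log2 difference at the top (Ppp1r3c) to the lowest at the bottom (Tfrc); each point is 1 library, red for apCAFs and blue for nonapCAFs. The red points lie clear of the blue ones in the upper part except in Gbe1, as in Car9 with 1714 to 3120 against 287 to 457. They mingle from Plod2 to Cited2.

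Of 32 other genes of glycolysis and glucose use, 1 rose (3.12%, against 3.91% of all tested genes) and 0 fell. In the authors' deposited table, 5 of the 23 given a DESeq2 adjusted p were higher and 1 lower at 0.05, against 20.6% and 9.77% of all genes given one. The gene called in limma was Pdk2, a further pyruvate dehydrogenase kinase, with 734, 675 and 928 in apCAFs and 302, 274 and 352 in nonapCAFs (2.50-fold, log2 1.32, SE 0.19, limma adjusted p = 0.0292). The genes with the next smallest p were Pgm1, a phosphoglucomutase (1.49-fold, limma adjusted p = 0.102), and Tigar, which lowers fructose 2,6-bisphosphate (893, 683 and 827 against 1051, 1139 and 1173; limma adjusted p = 0.189). Pgd and Pdha1, of the pentose phosphate pathway and of pyruvate dehydrogenase, had log2 differences of -0.02 and 0.01. Of 6 other HIF regulators 0 passed in limma, with 1 higher at an unadjusted p under 0.05 (16.7%, against 13.1% of all tested genes) and 1 higher in the authors' deposited table at a DESeq2 adjusted p under 0.05 (against 20.6% of the genes given one there). Arnt, the common HIF partner, had a log2 difference of 0.12, and its paralogue Arnt2 read 510, 385 and 827 in apCAFs and 177, 146 and 198 in nonapCAFs (log2 1.66, limma adjusted p = 0.0597). Vhl, the ubiquitin ligase gene that removes hydroxylated HIF, had a log2 difference of 0.59 (limma adjusted p = 0.32). Hif3a, a further alpha subunit, read 286, 204 and 676 in apCAFs and 20, 0 and 282 in nonapCAFs, with groups that overlapped.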

How the data were processed

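The authors deposited, per the file headers, a normalized count per gene and library, rounded to whole numbers and treated here as a score, and a table that adds their log2 values, a fold change as a ratio, and DESeq2 p-values; the table's GC percent, as deposited, was not used. Trim Galore, Bowtie2, DESeq2 and mm10 are named in the submitters' processing notes, with no roles. The counter, annotation and strandedness were not given in the sources used here. Library totals of the normalized values run from 77960347 to 93330791 and are not depths, so no counting interval is given. On the log2(value + 1) scale, limma 3.58.1 (R 4.3.3) was fitted over all 6 libraries with group as the only term, two-sided, with Benjamini-Hochberg adjustment over all 36443 tested genes and calls at 0.05. Fold changes are 2 to the power of the log2(value + 1) difference, which understates changes of low values. p-values measure the spread between libraries, which may be partly technical. The fit was tested on simulated data with the means and spreads of the real genes. It called 24% to 36% of planted 2-fold changes and 54% to 84% of planted 4-fold changes. These shares may differ in the real data. A difference that did not pass is therefore not shown to be absent. Coordinates are those of the files; 55117 of 55298 identifiers were found in GENCODE M21, which gave exon lengths and the 50-base stretches shared with other genes. Every member is named by rule; full values are given for members called, at an unadjusted p under 0.05, or in groups that do not overlap. Among other pathway genes the rule names those called, or the 3 with the smallest p; Vegfa, Tfrc, Mxi1, Pgd, Pdha1, Kdm3a, Higd1a, Ak4, Plod2 and Arnt were named after their values were seen. The members, pairs and lists were chosen with earlier results of these data known.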

Additional observations from a re-analysis of the deposited data

How the results depend on the processing

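The 2 member calls depended on the fit. limma called 5 members with a pseudocount of 10, 6 when the test was limited to genes whose mean was 100 or more, 9 with a variance trend and robust estimation, 5 with a term for apCAFs 3 and nonapCAFs 6, 1 with median centring, and 0 with the close libraries averaged (apCAFs 1 with 2, nonapCAFs 4 with 5). The calls over all genes, in either direction, moved too, from 1602 in the main fit. They were 2527 with the pseudocount, 2748 of the 17829 genes whose mean was 100 or more, and 3571 with the variance trend. With the term they were 2490, with median centring 1228 and with close libraries averaged 0. Leaving out 1 library gave 310 to 1791. Leaving out 1 library gave 0 to 4 calls: 0 without apCAFs 2 or nonapCAFs 4, 1 without apCAFs 1 or nonapCAFs 5, 4 without apCAFs 3, and 2 without nonapCAFs 6. Under each of the 6 possible pairings as a replicate block limma called 0 members (9 or 10 at an unadjusted p under 0.05) and 0 genes in all. A balanced block leaves each difference as it is and has fewer degrees of freedom for the error. No paired analysis was possible from the labels because they do not say which libraries share an experiment.

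The 6 other pathway genes called became 11 with a pseudocount of 10, 14 among genes whose mean was 100 or more, 15 with a variance trend and robust estimation, 0 with the close pairs averaged, 0 under each replicate block and 1 to 7 when 1 library was left out. The counts over all genes in these settings are those given above. The members' median log2 difference of 0.15 was 0.00 with library totals, 0.04 with quantile normalization, 0.05 with upper-quartile centring, -0.27 with median centring and 0.11 to 0.20 when 1 library was left out. The cause of these shifts was not tested. The count of 10 paralogue pairs with separate groups was 10 or 11 under every alternative run. Separate groups stay separate when a library is left out or close libraries are averaged, so those runs could not lower the count. Experiment terms leave those ratios as they are and were not run.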
